A study of Capra hircus with 36 samples.

Results

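The miRNA content of goat skeletal muscle was set against that of heart, kidney, liver, lung and spleen. The muscle libraries were those labelled as muscle by tissue, which the study took from the longissimus, and they were 6 of the 36 small RNA libraries. All 6 goats gave 1 library of each of the 6 tissues, so 30 libraries served as the comparison. The goats were adult females about 3 years old, 3 Tibetan goats living at 3000 m (high altitude) and 3 low-altitude goats living at 600 m. Breed, altitude, form of rearing and body weight differ together between these populations and cannot be told apart. Each group of tissue and altitude held 3 libraries. The study sampled all tissues from each animal, and same-numbered libraries of a population were taken as 1 goat.

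The deposited values were counts of mature miRNAs, known, conserved and predicted. The muscle libraries held 12234350 to 14407748 counts, with a median of 12766926, and the 36 libraries together ranged from 7108635 to 14407748. At these depths 3 counts, the upper limit that a count of 0 allows, corresponded to 0.208 to 0.422 CPM (counts scaled to a common total). Levels below are CPM, counts scaled to a common library total and then by TMM, a factor that sets the bulk of miRNAs equal between libraries. The TMM factors of muscle were low, between 0.446 and 0.855 with a mean of 0.599, against means of 1.43 in lung, 1.33 in spleen, 1.31 in liver, 1.03 in kidney and 0.780 in heart. A muscle CPM therefore stood above the plain share of counts. The limit of 3 counts given above is before TMM scaling and is likewise higher in muscle on the TMM scale. With library size as the only scaling, log2 fold changes of muscle over the other tissues moved by a median of -0.95 over 303 miRNAs averaging 10 CPM or more, and changes are given relative to the TMM scale.

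Certain muscle libraries stood apart. Over those 303 miRNAs, the muscle library of low-altitude goat 3 had a mean correlation of 0.805 with the other muscle libraries on the log2(CPM + 1) scale, and that of high-altitude goat 2 had 0.841, against 0.848 to 0.890 in the remaining 4. These correlations run across miRNAs, which are not independent replicates. For named results that rest on either library, the value without it is given where it was computed. Between tissues, the mean correlation with muscle was 0.793 for heart, 0.697 for spleen, 0.683 for kidney, 0.665 for liver and 0.643 for lung.

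A miRNA is a short RNA that guides a silencing complex to messenger RNAs carrying matches to its seed, the stretch near its 5′ end, and each hairpin precursor can give a 5p and a 3p arm. Striated muscle is known for a small group called myomiRs, which includes miR-1, miR-133 and miR-206. Their transcription is driven by myogenic factors such as MyoD, MEF2 and SRF, and they take part in the switch of myoblasts from proliferation to differentiation. miR-1 and miR-133 are shared by heart and skeletal muscle, whereas miR-206 is known from skeletal muscle. A further group, miR-208a, miR-208b and miR-499, lies in introns of myosin heavy chain genes.

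The muscle label was checked with miR-133. miR-133a-3p and miR-133b-5p carried the same count in all 36 libraries, so these names are described as 1 measurement. miR-133a-3p took 23.7%, 24.5% and 17.9% of the counts in the muscle of the 3 high-altitude goats and 25.7%, 27.6% and 22.3% in the low-altitude goats. The mean was 23.6% ± 3.34 (SD, n = 6) in muscle and 12.4% ± 3.63 (SD, n = 6) in heart. All these shares divide by totals that count miR-133 under both names. With names of identical counts kept once they are higher, for example 31.0% in the muscle of high-altitude goat 1. Among the remaining tissues the mean share was 0.254% for liver, 0.148% for spleen, 0.0525% for lung and 0.0502% for kidney. Both striated tissues were thus high and the other tissues near the bottom of the range, as the labels of these libraries state.

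On the CPM scale miR-133a-3p reached 531400, 324700 and 381100 in high-altitude and 484100, 510100 and 260500 in low-altitude muscle. Heart ranged from 94647 through a median of 165488 to 254477. On this scale all 6 muscle libraries lay above all 30 others, although low-altitude goat 3 was only just above the highest heart. By plain share of counts muscle and heart overlapped. The heart of low-altitude goat 3, at 18.6%, was above the muscle of high-altitude goat 3, at 17.9%. Muscle was higher than the mean of the other 5 tissues by a log2 fold change of 7.55 (SE 0.29, edgeR quasi-likelihood test, Benjamini-Hochberg adjusted p = 6.51e-19). In all log2 fold changes this mean averages the fitted log levels of the 5 tissues, so it is not a fold over their average CPM. Against heart, the next highest tissue, the log2 fold change was 1.39 (SE 0.45, edgeR quasi-likelihood test, Benjamini-Hochberg adjusted p = 0.0438), which is under the minimum of 1.5 used for a call. In a tissue homogenate, a lower level in fewer cells of a type and a lower level per cell cannot be told apart.

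Across all miRNAs tested, a call required an adjusted p under 0.05 and a log2 fold change of at least 1.5 in size. Muscle was higher than the mean of the other 5 tissues for 134 miRNAs (9.63%) and lower for 57 (4.1%). Of the 134 higher, 70 stayed under 10 CPM in every tissue and 30 reached 100 CPM in muscle. The next highest tissue of these 134 was heart for 56, kidney for 40, liver for 18, spleen for 11 and lung for 9. With library size as the only scaling the split was 89 higher and 122 lower. It was 101 and 102 with DESeq2, and 242 and 72 with 6 tissue groups. The balance of directions therefore depended on these settings.

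Against single tissues, muscle differed from heart in the fewest miRNAs, 106 (7.62%; 64 higher and 42 lower in muscle). The corresponding numbers were 162 for kidney (11.6%; 73 higher), 187 for liver (13.4%; 98 higher), 235 for lung (16.9%; 127 higher) and 211 for spleen (15.2%; 109 higher). Higher in muscle than in each of the 5 tissues were 16 miRNAs (1.15%), and lower than in each were 6 (0.431%). With library size as the only scaling these were 6 higher and 24 lower, and fits that left out 1 library gave 7 to 15 higher and 4 to 12 lower. Leaving heart aside, 38 miRNAs (2.73%) were higher and 14 (1.01%) lower than in each of the 4 others. Of those 38, 20 were not called against heart and 2 were lower in muscle than in heart. On the TMM scale every muscle library lay above all 30 others for 17 miRNAs (1.22%) and below all of them for 3 (0.216%).

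All 6 names of the myomiR list were higher in muscle than in the mean of the other tissues, against a background of 9.63%, with a median log2 fold change of 7.08 where all miRNAs had a median of -0.42. Summed, they took 48.5% ± 6.59 (SD, n = 6) of the counts in muscle and 25.3% ± 7.82 (SD, n = 6) in heart, with the shared miR-133 counts entering under both names. Within the list, the difference from heart was largest for miR-206-3p.

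miR-206-3p, the myomiR of skeletal muscle, stood at 1084, 60.8 and 2299 CPM in high-altitude muscle and at 257.9, 543.6 and 9075 CPM in low-altitude muscle. Heart ranged from 0 to 9.46 CPM with a median of 3.11, and the highest of the 30 other libraries was a lung library at 11.7 CPM. The groups did not overlap, but muscle itself varied widely, with high-altitude goat 2 lowest and low-altitude goat 3 highest. Muscle exceeded heart, the next highest tissue, by a log2 fold change of 9.20 (SE 1.49, edgeR quasi-likelihood test, Benjamini-Hochberg adjusted p = 5.06e-05), and by 7.21 without low-altitude goat 3. In the ARS1.2 assembly MIR206 lies beside MIR133B, between IL17A and PKHD1.

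miR-1-3p, the partner of miR-133 in striated muscle, stood at 2659, 1692 and 5825 CPM in high-altitude muscle and at 2149, 1976 and 67810 CPM in low-altitude muscle. Heart ranged from 462 to 29507 CPM with a median of 2016. Muscle and heart overlapped broadly, and the single value of low-altitude goat 3 raised the muscle mean from 2860 to 13685 CPM. Muscle exceeded the mean of the other 5 tissues by a log2 fold change of 6.61 (edgeR quasi-likelihood test, Benjamini-Hochberg adjusted p = 1.26e-10), and by 4.402 without that library, whereas the difference from heart, 0.39 (SE 0.88), did not pass. MIR1 and MIR133A share an interval between SLCO4A1 and GATA5. The other arm, miR-1-5p, stayed at or below 2.62 CPM in muscle.

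The 5p arm of miR-133a was far scarcer than its partner. miR-133a-5p stood at 74.1, 1680 and 68.0 CPM in high-altitude muscle and at 147.6, 86.2 and 153.2 CPM in low-altitude muscle, and heart ranged from 49.5 to 119.3 CPM. Only high-altitude goat 2 was far above the heart range. Over heart the log2 fold change was 1.92 with all libraries (edgeR quasi-likelihood test, Benjamini-Hochberg adjusted p = 0.0312) and -0.01 without that library. The call was lost in 26 of 36 fits that left out 1 library, among them those without low-altitude goat 1, 2 or 3, and in 6 other settings.

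**Figure D1:**
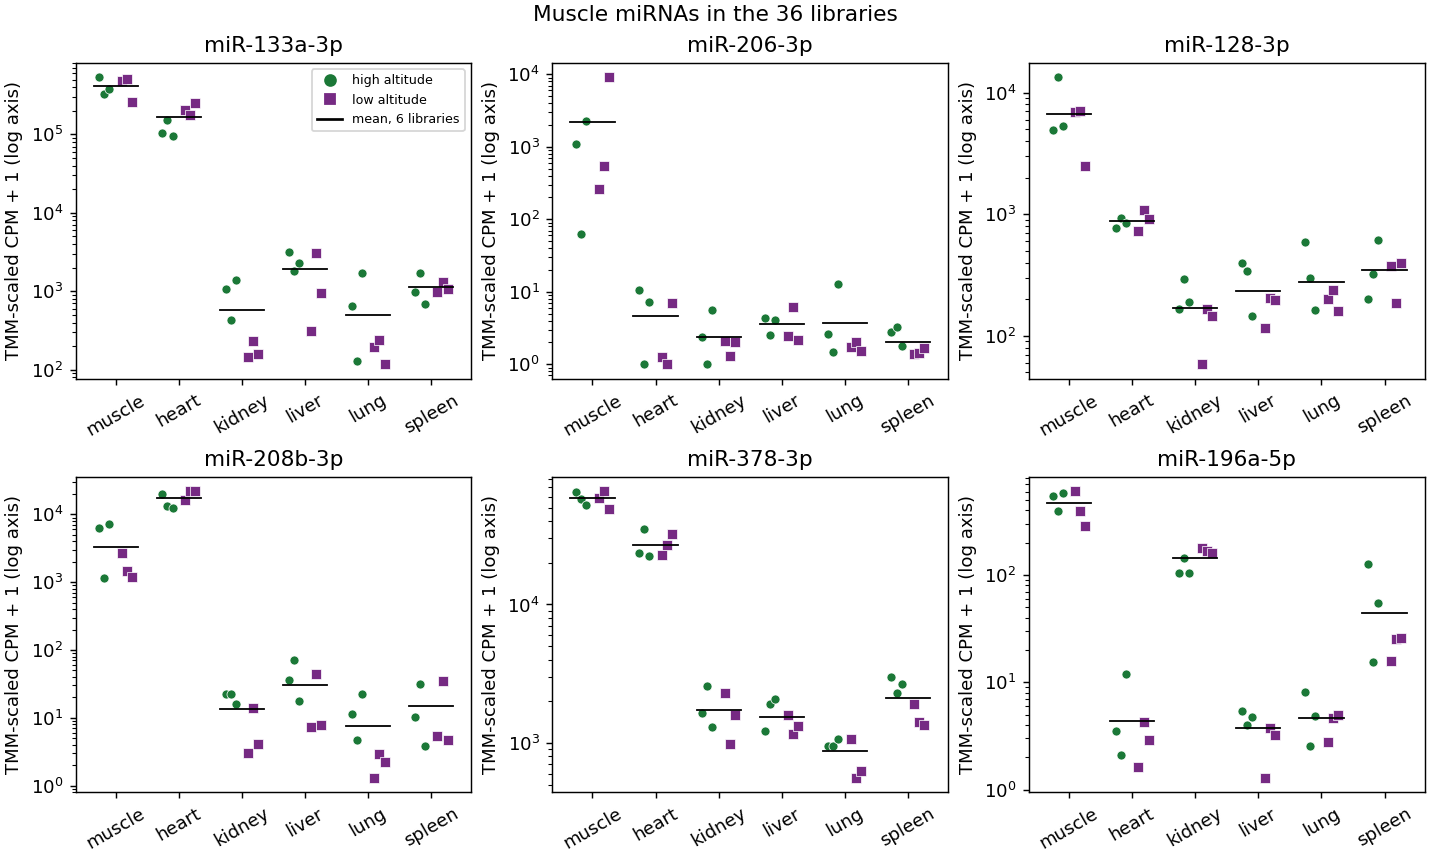
Levels of miR-133a-3p, miR-206-3p, miR-128-3p, miR-208b-3p, miR-378-3p and miR-196a-5p in all 36 libraries, as CPM + 1 after TMM scaling on a log axis, by tissue. Green circles are high-altitude goats, purple squares low-altitude goats, and the black line is the mean of the 6 libraries of a tissue; muscle lies above heart in all panels but that of miR-208b-3p, where the 6 heart libraries are higher.

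The myosin-intron miRNAs were shared with heart, and 2 of their 6 names were called lower in muscle than in heart. Among all miRNAs tested, 42 were called lower in muscle than in heart, and 7.62% were called against heart in either direction. All 6 names were higher than the mean of the other tissues (background 9.63%, median log2 fold change 4.53), a comparison in which the 4 non-striated tissues weigh most. With the 30 other libraries pooled into 1 group, miR-208a-3p turned to -2.60 and miR-208a-5p to -0.87, and miR-208b-3p turned as well. Summed, the 6 names took 0.280% ± 0.153 (SD, n = 6) of the counts in muscle and 2.04% ± 0.315 (SD, n = 6) in heart. miR-208b, from an intron of the slow and cardiac myosin gene, stood at 6228, 1165 and 7333 CPM (3p arm) in high-altitude muscle and at 2669, 1478 and 1198 CPM in low-altitude muscle. Heart ranged from 12378 to 22156 CPM with a median of 17904. Every heart library was above every muscle library, and muscle was lower by a log2 fold change of -2.56 (SE 0.68, edgeR quasi-likelihood test, Benjamini-Hochberg adjusted p = 0.0124). Over the mean of the other 5 tissues, a mean of log levels, the value was 5.92. With the 30 libraries pooled into 1 group, which has 1 mean level, it was -0.08. These values compare muscle with different averages.

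miR-499-5p, from an intron of MYH7B, behaved alike, with 4499, 1262 and 2505 CPM in high-altitude muscle, 1403, 1166 and 907 CPM in low-altitude muscle, and 5416 to 11316 CPM in heart (median 9484). These ranges did not overlap, and the log2 fold change of muscle over heart was -2.32 (SE 0.60, edgeR quasi-likelihood test, Benjamini-Hochberg adjusted p = 0.0104). miR-208a, which lies in the cardiac alpha-myosin gene and marks cardiomyocytes, was close to absent from muscle, its 3p arm at 1.04 to 4.20 CPM. Heart stood at 2.58 to 5.31 CPM for miR-208a-3p at high altitude, overlapping with muscle, and at 87.1 to 271 CPM at low altitude, and the log2 fold change was -3.19 (SE 1.02, edgeR quasi-likelihood test, Benjamini-Hochberg adjusted p = 0.0531), so the difference did not pass. miR-208b-3p and miR-499-5p were the 2 miRNAs that were higher in muscle than in the 4 non-striated tissues and lower than in heart.

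miR-378, encoded in PPARGC1B and tied to mitochondrial and lipid metabolism, was among the steadiest of the abundant muscle miRNAs. miR-378-3p stood at 65160, 57840 and 52170 CPM in high-altitude muscle and at 59180, 65950 and 49100 CPM in low-altitude muscle, 3.44% ± 0.747 (SD, n = 6) of the counts. Heart, the next highest tissue, ranged from 22318 to 34855 CPM with a median of 25170, below every muscle library on the TMM scale. By plain share of counts muscle and heart overlapped. The heart of high-altitude goat 2 held 380472 of 12390408 counts. The muscle of high-altitude goat 1 held 418542 of 14407748, a smaller share. The log2 fold change was 4.47 over the mean of the other tissues (SE 0.15, edgeR quasi-likelihood test, Benjamini-Hochberg adjusted p = 2.23e-20). Over heart it was 1.11 (SE 0.23, edgeR quasi-likelihood test, Benjamini-Hochberg adjusted p = 0.00153), past the p threshold but not the fold minimum. The 5p arm showed the same order on the TMM scale, with 213.5 to 338.2 CPM in muscle and 103.5 to 163.4 CPM in heart.

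Of the 9 names of the metabolic list to which miR-378 belongs, 3 were higher (background 9.63%) and 1 was lower (background 4.1%). The one that fell was miR-103-3p, from an intron of the pantothenate kinase gene PANK2 and known for its part in insulin sensitivity. Its levels were 544, 521 and 514 CPM in high-altitude and 314, 303 and 324 CPM in low-altitude muscle. Heart, the next lowest tissue, ranged from 675 to 1086 CPM (median 804), and the lowest of all 30 other libraries was at 669 CPM. All 6 muscle libraries were below all 30 others. The log2 fold change was -1.55 against the mean of the other tissues (SE 0.19, edgeR quasi-likelihood test, Benjamini-Hochberg adjusted p = 2.94e-07) and -1.02 against heart. The near-identical miR-107, its arms summed, was close to miR-103-3p in 5 muscle libraries, at 301 to 544 CPM, and lower in high-altitude goat 2, at 320 CPM. Whether the same reads were counted under both names was not tested.

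Erythroid miR-486, which is also transcribed in striated muscle from the ANK1 locus, was abundant in both striated tissues. miR-486-5p stood at 37910, 57010 and 62080 CPM in high-altitude muscle and at 26940, 37230 and 16070 CPM in low-altitude muscle, against 13991 to 56262 CPM in heart (median 25769). Muscle and heart overlapped, and the log2 fold change of 0.45 did not pass. Among the 30 other libraries 4 had a count of 0, and the log2 fold change over the mean of the other tissues, 3.20, had an SE of 1.02. This call was lost in 23 of 36 fits that left out 1 library and in 4 other settings. The 3p arm gave a cleaner contrast, 36.4 to 112.2 CPM in muscle, 58.6 to 76.5 CPM in heart and at most 5.32 CPM in liver. The erythroid list had 2 of 4 names higher (background 9.63%), both arms of miR-486, while neither arm of the red cell miRNA miR-144 was called and miR-451 was not among the names. Blood content was not measured, and its part in these levels was not tested.

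Beyond heart, miR-128-3p gave the steadiest separation of skeletal muscle. This miRNA, encoded in R3HDM1 and best known from neurons, stood at 4911, 13330 and 5349 CPM in high-altitude muscle and at 6901, 7023 and 2494 CPM in low-altitude muscle. Heart ranged from 722 to 1089 CPM with a median of 873. Every muscle library was above every heart library, high-altitude goat 2 being highest and low-altitude goat 3 lowest. The mean of muscle was 7.64 times that of heart, with a log2 fold change of 2.91 (SE 0.40, edgeR quasi-likelihood test, Benjamini-Hochberg adjusted p = 3.38e-06), and of 2.19 without high-altitude goat 2. Against spleen, lung, liver and kidney the log2 fold changes were 4.25, 4.64, 4.87 and 5.34. Among the 16 miRNAs higher than in all 5 tissues it was the 1 that stayed so with any single library left out and under each of the other settings tried.

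miR-196a-5p completed the 3 miRNAs that met the strictest rule, which asked for a call against all 5 tissues, at least 100 CPM and no overlap with any other library. It is encoded in the HOXB cluster, between HOXB13 and HOXB9, and represses HOX transcripts. Muscle levels were 541.7, 398.2 and 574.8 CPM at high altitude and 606.4, 397.5 and 282.6 CPM at low altitude. The next highest tissue was kidney, at 104 to 176 CPM with a median of 150.5, and heart was at 0.640 to 10.8 CPM. Muscle exceeded kidney by a log2 fold change of 1.73 (SE 0.54, edgeR quasi-likelihood test, Benjamini-Hochberg adjusted p = 0.0268) and exceeded heart by 7.25. The call against all 5 tissues held in 3 of 36 fits that left out 1 library, the lowest value over kidney being 1.23. The levels did not overlap on the TMM scale, but the rule itself asked for that. By plain share of counts muscle and kidney overlapped. The kidney of low-altitude goat 3 held 2455 of 10136868 counts. The muscle of low-altitude goat 2 held 2915 of 13537937, a smaller share. In 28 of the 36 fits the TMM reference also changed to a spleen library. With that reference and all libraries the call was lost too, as were those of miR-133a-5p and miR-193b-3p.

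The HOX-locus list as a whole had 6 of 8 names higher in muscle (background 9.63%) and none lower, with a median log2 fold change of 4.41. These miRNAs sit in HOX gene clusters. Their summed level was 59187 to 453388 CPM in muscle, 144508 to 935211 CPM in kidney and 27047 to 300128 CPM in lung, so that all 3 tissues overlapped. In lung the list was led by miR-10a-5p, at 24737 to 257634 CPM, against 2941 to 18387 CPM in muscle. miR-10b-5p, between HOXD8 and HOXD3, was the second most abundant name of muscle after miR-133, with 270300, 55510 and 433800 CPM at high altitude and 209500, 139700 and 76420 CPM at low altitude. Kidney was as high or higher, at 107487 to 730986 CPM, and the ranges overlapped (log2 fold change -1.05, edgeR quasi-likelihood test, Benjamini-Hochberg adjusted p = 0.231). Within each of the 6 goats the kidney library was above the muscle library, a pairing that this test does not use. Heart was lower by far, so that muscle exceeded it by 3.66 on the log2 scale. miR-196b-5p, at 279.7 to 489.6 CPM in muscle and 269.5 to 513.4 CPM in kidney, stayed at or below 4.01 CPM in heart.

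Further miRNAs among the 16 were chosen for description after their values were seen. miR-500-3p lies in an intron of CLCN5 together with miR-362, miR-502 and miR-660. It stood at 3725, 1036 and 6279 CPM in high-altitude muscle and at 8359, 4846 and 1038 CPM in low-altitude muscle, and kidney, the next highest tissue, ranged from 268 to 1107 CPM. The 2 lowest muscle libraries fell within the kidney range and the other 4 were well above it. Over kidney the log2 fold change was 2.44 (SE 0.51, edgeR quasi-likelihood test, Benjamini-Hochberg adjusted p = 0.000799). miR-502a-3p of the same locus was scarce, at 1.61 to 26.8 CPM in muscle and at most 2.39 CPM elsewhere.

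Also chosen after the fact, miR-193b-3p, a miRNA known from brown fat and muscle development, stood at 1601, 296.7 and 3339 CPM in high-altitude muscle and at 1443, 961.2 and 450.2 CPM in low-altitude muscle. Liver was next highest at 255 to 430 CPM, and only high-altitude goat 2 fell inside that range. Over liver the log2 fold change was 1.83 (SE 0.48, edgeR quasi-likelihood test, Benjamini-Hochberg adjusted p = 0.00759), and the call against all 5 tissues held in 10 of 36 fits that left out 1 library. miR-190b-5p, beside the tropomyosin gene TPM3, had 4.58 to 71.8 CPM in muscle and 3.85 to 14.6 CPM in lung, the next highest tissue. Of the 16, 5 were called without every library in turn, namely miR-206-3p, miR-128-3p, miR-500-3p, miR-502a-3p and miR-381-3p.

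Other abundant muscle miRNAs were not particular to muscle. miR-26a-5p ranged from 70990 to 261100 CPM in muscle and from 119446 to 171496 CPM in heart, and its log2 fold change over the mean of the other tissues, 0.58, became -0.45 with library size as the only scaling. miR-22-3p, high in striated muscle and liver, ranged from 46800 to 90570 CPM in muscle and from 55432 to 65442 CPM in liver, a difference of 0.04 on the log2 scale. miR-27b-3p was lower in muscle than in heart, with a log2 fold change of -1.64 (edgeR quasi-likelihood test, Benjamini-Hochberg adjusted p = 0.000191). The value of miR-30e-5p against heart, -1.15 (edgeR quasi-likelihood test, Benjamini-Hochberg adjusted p = 0.00272), was short of the minimum for a call. The heart libraries of miR-27b-3p, 68970 to 92047 CPM, all lay above the 12020 to 49750 CPM of muscle, while those of miR-30e-5p overlapped with muscle.

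Of the 10 names of the miR-30 family, 4 were higher in muscle than in the mean of the other tissues (background 9.63%), all of them 3p arms, and 1 was lower (background 4.1%). No difference between arms was tested. miR-30a-5p, the one that fell, stood at 5643 to 17860 CPM in muscle and at 28013 to 66330 CPM in heart, and spleen, at 7041 to 13078 CPM, and 1 lung library, at 15799 CPM, were as low. Its log2 fold change was -1.99 (SE 0.30, edgeR quasi-likelihood test, Benjamini-Hochberg adjusted p = 6.21e-06), and it was negative under every scaling tried. The opposite arm, miR-30a-3p, rested on single libraries. In muscle 0, 191.5 and 0.500 CPM in high-altitude muscle stood beside 202.8, 169.2 and 97.6 CPM in low-altitude muscle, while a liver library reached 546 CPM and a heart library 231 CPM, above every muscle library. Its log2 fold change of 5.20 over the mean of the other tissues became 0.78 without high-altitude goat 2, and the call was lost.

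miR-30d-3p was more even in muscle, at 46.3 to 92.6 CPM, but switched between near 0 and high levels elsewhere. It had a count of 0 in 11 of the 30 other libraries, while heart reached 85.4 CPM, inside the muscle range, and a kidney library 148 CPM, above it.

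The counts of the next families stand beside backgrounds of 9.63% higher and 4.1% lower. The let-7 family had 2 of 15 names higher and none lower, and its most abundant member, let-7f-5p, had a log2 fold change of 0.44 that became -0.47 with library size as the only scaling. Of these 2, let-7d-3p was at 414 CPM in high-altitude goat 2 and at 14.3 to 52.5 CPM in the other muscle libraries, and its log2 fold change of 2.07 became 0.70 without that goat, which ended the call. The miR-29 family had 1 of 5 names higher, the miR-23, miR-24 and miR-27 list 1 of 8, and the miR-424 and miR-450 cluster 1 of 8, with none lower. The members called were miR-29b-5p, at most 1.08 CPM in muscle, miR-27b-5p and miR-424-3p. Without high-altitude goat 2 the calls of miR-29b-5p (3.69 to 1.12) and miR-424-3p (1.65 to 0.56) were lost. Of 36 fits that left out 1 library, the call of miR-424-3p was lost in 21 and that of miR-27b-5p (1.78) in 27, and miR-424-3p also lost it in 7 other settings. The list of miR-99, miR-100 and miR-125 had 0 of 12 called in either direction by edgeR. Its most abundant member in muscle, miR-125b-5p, stood at 7003 to 28250 CPM in muscle and was lower than in heart by a log2 fold change of -1.44, short of the minimum for a call. The miR-181 family had 1 of 6 names lower, a miRNA under 1 CPM in all tissues, and miR-181a-5p, its main member, differed by -0.25.

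None of the 57 lower miRNAs met the strict rule that asked for a call against all 5 tissues, 100 CPM and no overlap. The 6 lower than in each tissue were scarce and were chosen for description after their values were seen. miR-34a-5p, a p53 target, stood at 1.98 to 7.997 CPM in muscle with a median of 3.75 CPM. Kidney, the next lowest tissue, ranged from 7.06 to 28.5 CPM with a median of 14.5, so that 1 muscle library overlapped with it. Against kidney the log2 fold change was -1.78 (SE 0.43, edgeR quasi-likelihood test, Benjamini-Hochberg adjusted p = 0.00385) and -4.35 against lung, the highest tissue. miR-330-5p, from an intron of EML2, was at 2.18 to 5.45 CPM in muscle, below all 30 other libraries, and liver was next lowest at 8.17 to 12.4 CPM. miR-490-5p, from an intron of the muscarinic receptor gene CHRM2, was at 0 to 0.934 CPM in muscle and at 6.14 to 18.4 CPM in heart, and spleen, the next lowest tissue, overlapped with muscle at 0.267 to 3.40 CPM. The other 3 were miR-7846-3p, miR-3138-5p and the DLK1-DIO3 member miR-487a-3p. The call of miR-7846-3p was lost with a block for goat and held in 26 of 36 fits that left out 1 library.

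Some markers of other cell types were among the depleted miRNAs. The leukocyte list had 5 of 15 names lower and none higher, where the background is 4.1%, with a median log2 fold change of -2.10. Its summed level was 2448 to 5108 CPM in muscle and 22236 to 55793 CPM in spleen. miR-142-5p, made across blood lineages and the most abundant of the list, stood at 1314, 737 and 2705 CPM in high-altitude muscle and at 897, 767 and 714 CPM in low-altitude muscle. Spleen ranged from 6271 to 37907 CPM and did not overlap. The next lowest tissues were kidney, at 1228 to 4885 CPM and overlapping with 2 muscle libraries, and heart, which overlapped with muscle as well. The log2 fold change was -2.44 against the mean of the other tissues (SE 0.36, edgeR quasi-likelihood test, Benjamini-Hochberg adjusted p = 3.66e-06) and -1.08 against kidney. The list was not uniform, as miR-150-5p, chosen after its values were seen, went the other way against all tissues but spleen. It stood at 393 to 1804 CPM in muscle and 1326 to 4843 CPM in spleen, and its log2 fold change over the mean of the other tissues, 1.33, or 0.52 with library size as the only scaling, was short of the minimum for a call. The part of immune cell content in these differences was not tested.

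Epithelial miRNAs had the lowest median of all lists and were low in heart and spleen too. Of 18 names 5 were lower (background 4.1%) and 2 higher (background 9.63%) than the mean of the other tissues, with a median log2 fold change of -2.52, and 6 had no count in any muscle library. Summed, the list stood at 11.3 to 128 CPM in muscle, 11.7 to 63.2 CPM in heart, 41.1 to 108 CPM in spleen and 3678 to 11869 CPM in lung. miR-141-3p, which together with the miR-200 family maintains the epithelial state by repressing ZEB factors, was at 1.99 to 18.3 CPM in muscle and at 1461 to 9724 CPM in lung. Against heart, where it was at 3.94 to 13.8 CPM, the log2 fold change was -0.07, and against the mean of the other tissues it was -4.90 (SE 0.51, edgeR quasi-likelihood test, Benjamini-Hochberg adjusted p = 9.05e-09). The most abundant member in muscle, miR-200a-3p, was at 6.27 to 30.2 CPM and 879 to 2462 CPM in kidney. The 2 higher names included miR-203b-1-5p, which stayed under 1 CPM in muscle.

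Smooth muscle and connective tissue markers were present in muscle at lower or like levels. miR-143-3p, the contractile smooth muscle miRNA beside miR-145, stood at 123500, 30260 and 108200 CPM in high-altitude muscle and at 31810, 38500 and 25620 CPM in low-altitude muscle. Spleen was highest at 236477 to 496078 CPM, above every muscle library, and kidney was the next lowest at 50114 to 143477 CPM, overlapping with muscle. Its log2 fold change was -1.50 against the mean of the other tissues (SE 0.31, edgeR quasi-likelihood test, Benjamini-Hochberg adjusted p = 0.000448), at the minimum for a call, which was lost without the heart library of low-altitude goat 1 (-1.50) or the spleen library of low-altitude goat 2 (-1.48) and in 3 other settings. Of the 8 names of that list 1 was lower (background 4.1%). The mesenchymal list had 1 of 11 lower, miR-21-3p at 13.8 to 25.3 CPM, while its most abundant member miR-199a-3p was even across tissues at 3742 to 5828 CPM in muscle (log2 fold change 0.08; -0.87 by library size). miR-126-3p, encoded in EGFL7 and made in endothelium, stood at 4952 to 9466 CPM in muscle with a log2 fold change of -0.03, and neither name of the endothelial list was called.

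The organ markers given here were far below their organ of origin in muscle, though not below every other tissue, and the counts of their lists stand beside the same backgrounds of 9.63% higher and 4.1% lower. The miR-192 and miR-194 list, known from liver, gut and kidney, had 3 of 4 names lower, with miR-194-5p at 102.6 to 334 CPM in muscle and 9287 to 14648 CPM in liver. Ciliated-cell miR-34c-5p was at 13.3 to 59.1 CPM in muscle and 1216 to 5678 CPM in lung, with a log2 fold change of -0.15 over the mean of the other tissues (-4.57 in a fit of muscle against the 30 other libraries as 1 group), and 1 of 8 names of that list, miR-449a-3p, was called lower. Summed, the ciliated-cell list averaged 39.1 CPM in muscle, above heart, kidney, liver and spleen at 8.4 to 26.3 CPM. Hepatocyte miR-122-5p was at 2.08 to 187.8 CPM in muscle and 4038 to 166272 CPM in liver, and that list had 1 of 4 names higher, the scarce miR-885-5p at 0.284 to 7.66 CPM, a call lost in 33 of 36 fits that left out 1 library. The hepatocyte list averaged 92.1 CPM in muscle, above heart at 50.5, lung at 44.4 and spleen at 17.5 CPM and below kidney at 100 CPM. These levels of markers from other organs were not zero in muscle, and whether the counts came from muscle cells was not tested.

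miR-221 and miR-222, which repress the cell cycle inhibitor p27 and fall as myoblasts differentiate, had 2 of 5 names called, both lower (background 4.1%), with a median log2 fold change of -2.10 over the list. miR-221-5p stood at 82.5, 52.7 and 104.6 CPM in high-altitude muscle and at 65.4, 57.7 and 33.1 CPM in low-altitude muscle. Liver, the next lowest tissue, overlapped at 67.3 to 117 CPM, and heart at 192 to 633 CPM did not. The log2 fold change was -2.21 against the mean of the other tissues (SE 0.29, edgeR quasi-likelihood test, Benjamini-Hochberg adjusted p = 6.17e-07). The miR-17-92 list had 2 of 27 names lower and none higher, a share near the background of 4.1%, and its main member miR-92a-3p differed by 0.36. That value turned to -0.28 without high-altitude goat 2 and to -0.57 with library size as the only scaling.

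The DLK1-DIO3 miRNAs, an imprinted cluster near RTL1 and DIO3 that is expressed from the maternal chromosome and is known for muscle growth in callipyge sheep, had 15 of 97 names called lower in the muscle contrast at high than at low altitude (background 1.08%), none of them without low-altitude goat 3, high-altitude goat 1 or high-altitude goat 3. The summed level was not tested. Against the other tissues the list had 8 of 97 names higher (background 9.63%) and 2 lower (background 4.1%). Its median log2 fold change was 0.34, or -0.31 with library size as the only scaling. Its summed level was 2654, 4655 and 3082 CPM in high-altitude muscle and 6896, 8903 and 84252 CPM in low-altitude muscle, against 16255 to 31359 CPM in kidney, the highest of the other tissues by mean. Each low-altitude muscle was above each high-altitude muscle, and low-altitude goat 3 was about an order of magnitude above the rest.

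The muscle contrast (muscle minus the mean of the other 5 tissues) was then compared between populations, as the value at high altitude minus that at low altitude. This difference was called negative for 15 miRNAs (1.08%) and positive for 2 (0.144%). All 15 negative ones belonged to the DLK1-DIO3 list. Over all 97 names of the list the difference was negative for 86 and positive for 11. Among the 38 names that reached a mean of 10 CPM in a tissue other than muscle it was negative for all 38, with a median of -3.25 on the log2 scale, where the median of the 303 miRNAs described above was 0.14. These names lie in 1 cluster, can share a transcript and are not independent. The calls depended on single libraries, since 0 were made without low-altitude goat 3, high-altitude goat 1 or high-altitude goat 3, whereas 24, 29 and 32 were made without high-altitude goat 2, low-altitude goat 1 or low-altitude goat 2. At an unadjusted p under 0.05, edgeR with all libraries gave 90 miRNAs for this difference (6.47%, where 5% would pass if none differed). At the thresholds for a call, DESeq2 gave 20 positive and 45 negative, where edgeR gave 2 and 15.

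Within the cluster both arms of miR-381 were higher in muscle than in each of the 5 other tissues. The log2 fold change over the mean of those tissues was 5.77 for miR-381-3p and 5.35 for the scarcer miR-381-5p. Over kidney, miR-381-5p had the larger value, 4.62. miR-381-3p stood at 74.7, 1129 and 134.8 CPM in high-altitude muscle and at 759.9, 1078 and 30350 CPM in low-altitude muscle. The highest of the other 30 libraries was a kidney library at 154.5 CPM. High-altitude goats 1 and 3 fell within the kidney range and the other 4 muscle libraries were above it. The log2 fold change over kidney, the next highest tissue, was 4.34 (SE 0.71, edgeR quasi-likelihood test, Benjamini-Hochberg adjusted p = 3.48e-05). Without low-altitude goat 3 it was 2.27, and the muscle mean went from 5588 to 635 CPM. The difference between populations for miR-381-3p was -4.99 (SE 1.08, edgeR quasi-likelihood test, Benjamini-Hochberg adjusted p = 0.0198). It became -1.27 without low-altitude goat 3, which ended the call, and -7.80 without high-altitude goat 2.

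miR-411a-5p, with 693, 1238 and 960 CPM in high-altitude muscle and 1218, 1668 and 18440 CPM in low-altitude muscle, was 1 of these calls. Without low-altitude goat 3 its muscle mean was 1155 CPM, and the libraries of the populations overlapped. The population difference was -3.48 (SE 0.74, edgeR quasi-likelihood test, Benjamini-Hochberg adjusted p = 0.0194), and -1.23 without that goat, where the call was lost. miR-127-3p, which lies antisense to RTL1 and was chosen after its values were seen, stood at 1531, 1216 and 1532 CPM in high-altitude muscle and at 3232, 4328 and 19360 CPM in low-altitude muscle. Here the populations did not overlap, and the difference was -2.46 (SE 0.58, edgeR quasi-likelihood test, Benjamini-Hochberg adjusted p = 0.0232), a call also lost without low-altitude goat 3.

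miR-409-5p split by population without resting on 1 library, and it was chosen after its values were seen, as was miR-495-3p. It was at 3.27, 1.56 and 3.50 CPM in high-altitude muscle and at 243, 211 and 156 CPM in low-altitude muscle. The same split stood in 4 other tissues: high-altitude libraries were at 8.22 to 32.7 CPM and low-altitude libraries at 86.6 to 1563 CPM in kidney, and heart, liver and spleen did not overlap between populations either. In lung the populations overlapped. The population difference of the muscle contrast, -2.23, did not pass (edgeR quasi-likelihood test, Benjamini-Hochberg adjusted p = 0.416). miR-495-3p stood at 2.34, 3.12 and 5.50 CPM in high-altitude and 11.7, 14.3 and 170.9 CPM in low-altitude muscle, and its difference of -5.22 did not pass either (edgeR quasi-likelihood test, Benjamini-Hochberg adjusted p = 0.115). Their sequences are given as members of the cluster whose muscle levels separated the populations, as listed in the study's table of PCR primers. Capitals mark the seed, bases 2 to 8, and the seeds differ.
miR-409-5p: aGGTTACCcgagcaactttgcat
miR-495-3p: aAACAAACatggtgcacttct

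**Figure D2:**
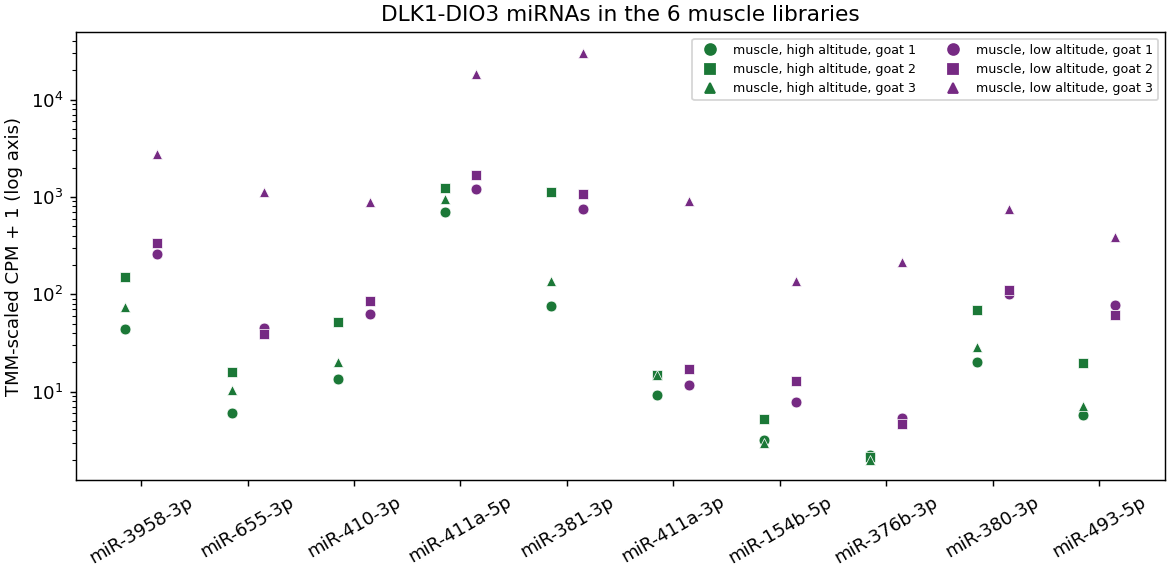
Levels of 10 DLK1-DIO3 miRNAs with the smallest p for the population difference in the 6 muscle libraries, as CPM + 1 after TMM scaling on a log axis. Symbols tell the 3 goats of each population apart; low-altitude goat 3 is the highest library for each miRNA shown, for example 30350 CPM for miR-381-3p.

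The 2 positive calls were not in the cluster and were chosen after their values were seen. miR-184-5p was at 2.65, 30.9 and 4.67 CPM in high-altitude muscle and at 0 in all 3 low-altitude muscles. miR-4524a-1-5p was at 12.8, 17.2 and 0.500 CPM in high-altitude and at 0, 0.136 and 0.0946 CPM in low-altitude muscle. Its counts in lung, liver, spleen and kidney were 0 in all high-altitude libraries. At low altitude they reached 205 in lung, 203 in spleen and 91 in kidney, so the other tissues also entered its difference. Both miRNAs were near or under the limit that a count of 0 allows in low-altitude muscle. The size of their difference cannot be read from these counts.

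Muscle libraries were concentrated on fewer miRNAs than the average of the other tissues. The 10 most abundant miRNAs took 86.4%, 83.5% and 84.6% of the counts in high-altitude muscle and 84.2%, 85.0% and 77.7% in low-altitude muscle. The mean was 83.6% ± 3.03 (SD, n = 6), with kidney next at 80.3% ± 7.04 and liver lowest at 69.9% ± 5.80 (SD, n = 6 each). With names of identical counts kept once, muscle libraries were at 73.5% to 83.5% and kidney libraries at 72.1% to 86.9%. Kidney then had the higher mean. Muscle exceeded the mean of the other 5 tissues by 10.2 points, in 6 of 6 goats (exact two-sided permutation test within goats, adjusted p = 0.000600 over 4 measures). The share of the single most abundant miRNA did not differ in a clear direction, with muscle -2.49 points from the others (exact two-sided permutation test, adjusted p = 0.621; 5 of 6 goats).

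Diversity pointed the same way. The effective number of miRNAs, the exponential of the Shannon entropy, was 14.3 ± 2.34 (SD, n = 6) in muscle, against 17.0 in spleen, 17.4 ± 7.03 in kidney, 22.0 in lung, 23.0 in heart and 25.6 in liver. The lowest muscle library was at 12.1, and 3 kidney libraries and 1 spleen library, at 11.2 to 11.6, lay below it. The difference from the mean of the other tissues was -6.72, in 6 of 6 goats (exact two-sided permutation test, adjusted p = 0.00466). At an equal depth of 7108635 counts, 528 ± 20.7 (SD, n = 6) miRNAs were expected in muscle and 539 in heart, with 568 in kidney, 603 in lung, 608 in liver and 617 in spleen, a difference of -58.8 (exact two-sided permutation test, adjusted p = 0.00466; 6 of 6 goats). With names of identical counts kept once, the top-10 difference was 6.82 points and that of the effective number -5.09.

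**Figure D3:**
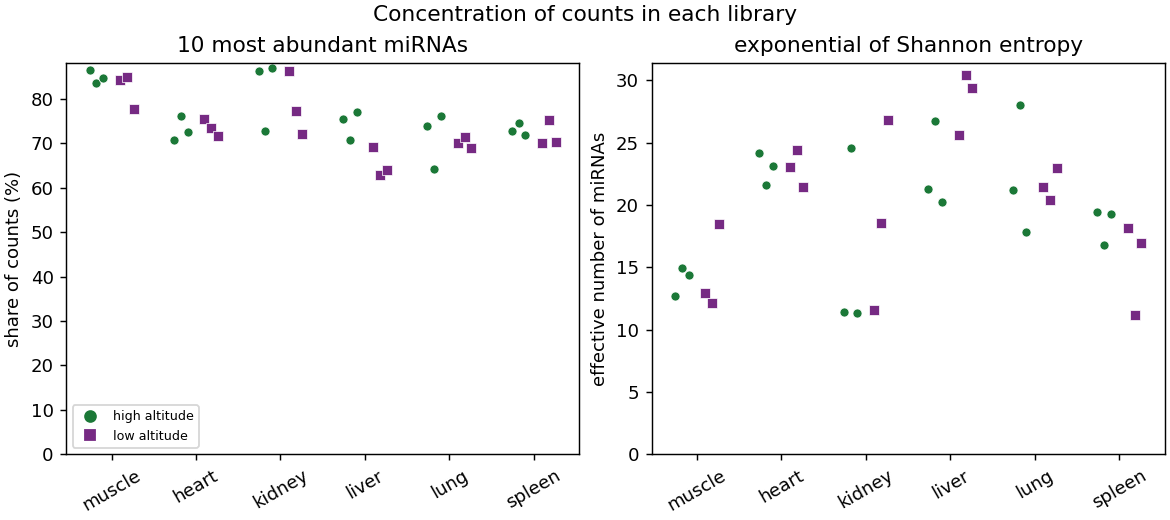
Share of counts taken by the 10 most abundant miRNAs (left, percent) and effective number of miRNAs (right) in each of the 36 libraries, by tissue, both axes starting at 0. Green circles are high-altitude and purple squares low-altitude goats. Muscle has the highest mean share, 83.6%, and the lowest mean effective number, 14.3. All names were counted, miR-133 under both of its names. With names of identical counts kept once, kidney has the highest mean share.

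Names that replaced each other between libraries limit what can be said of single arms. let-7a-5p held over 90% of the let-7a counts in 20 of 36 libraries and let-7a-3p in the other 16, with 4 and 2 of the muscle libraries among them. The pairs of miR-199b and miR-199c did the same in 19 and 17 libraries, for both arms, and those of miR-107 in 11 and 25. Summed, let-7a stood at 2101 to 11995 CPM in muscle, with high-altitude goat 2 highest, and the 3p arms of miR-199b and miR-199c at 3727 to 5807 CPM. In all, 176 miRNAs had a 0 in 1 library of a group beside 100 counts or more in another. The sequences listed for let-7a-3p and miR-199c-3p are printed since each name held nearly all counts of its pair in 2 muscle libraries and few or none in the other 4, and the listed let-7a-3p begins with the seed by which the let-7 family is known.
let-7a-3p: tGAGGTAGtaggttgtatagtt
miR-199c-3p: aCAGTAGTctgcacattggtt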

How the data were processed

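Small RNA of 36 goat tissue samples was sequenced on the HiSeq platform. The authors deposited raw counts per mature miRNA for each library, made with CASAVA 1.8 and Bowtie per the submitters' processing notes. The Bowtie version is not given in the sources used here. The paper states that miRNAs were detected from the mapped reads with miRDeep, with mature sequences of miRBase as reference. Groups were taken from the labels. The counts were analysed with edgeR 4.0.16 (TMM, quasi-likelihood test, 12 groups of tissue and altitude in 1 fit; limma 3.58.1, R 4.3.3), with Benjamini-Hochberg adjustment over all miRNAs tested and calls at adjusted p under 0.05 and absolute log2 fold change of at least 1.5. Library diversity was tested by an exact two-sided permutation of the tissue labels within goats (46656 assignments). Python 3.11.15 and Matplotlib 3.10.9 drew the plots. The tests were tested on simulated data. Gene neighbours come from the RefSeq table of ARS1.2, in which 67 of 81 miRNAs looked up had a miRNA gene. Sequences come from the study's list of PCR primers.

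Named miRNAs were 12 at most with the largest rise over the next highest tissue, 12 at most with the largest fall, the 10 most abundant of muscle, up to 10 with the smallest p for the altitude difference, and from the 23 lists all myomiRs and myosin-intron miRNAs and the top and extreme members of the others. These rules gave 3, 0, 10, 10 and 52 names, 65 in all. Any other miRNA described was taken from outside these rules. Not all of those are marked in the text as chosen after their values were seen. The lists covered myomiRs, myosin introns, DLK1-DIO3, miR-424 and miR-450, metabolic introns, erythroid, leukocyte, endothelial, smooth muscle, mesenchymal, epithelial, hepatocyte and ciliated-cell markers, miR-192 and miR-194, HOX loci, miR-17-92, miR-221 and miR-222, miR-29, miR-30, let-7, miR-181, miR-23 with miR-24 and miR-27, and miR-99 with miR-100 and miR-125. The members and lists were chosen with earlier results of these data known.

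The study took all tissues from each goat; that same-numbered libraries of a population are 1 goat is read from their numbering. Deviations of muscle from its group mean had a mean correlation of 0.0380 to 0.408 over 230 miRNAs with those of the same goat's other tissues, near 0 for low-altitude goats 1 and 2; this does not test the pairing. Alternatives were other size factors, DESeq2 1.42.0, a robust fit, other filters and fold minimums, names of identical counts kept once, a goat block, other groupings, 1 altitude only and each library left out; summing 4 pairs of alternating names and fixing the TMM reference were chosen after seeing the data. Floors of 3 counts cover counting error only.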

Additional observations from a re-analysis of the deposited data

Results flagged for a closer look

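In the 6 muscle libraries, 87 sets of values were examined for a library far from the other 5, and 9 had one, where chance gives about 1 in 20 groups. Low-altitude goat 3 was the distant library in 6 of these. Its level of miR-411a-5p was 18440 CPM (others 693 to 1668), of miR-411a-3p 909.0 CPM (others 8.25 to 16.0), of miR-376b-3p 212.8 CPM (others 0.9996 to 4.311), of miR-381-5p 57.8 CPM (others 0 to 1.35) and of miR-1-3p 67810 CPM (others 1692 to 5825). Its 10 most abundant miRNAs took 77.7% of the counts (others 83.5% to 86.4%). High-altitude goat 2 was distant for miR-133a-5p at 1680 CPM (others 68.0 to 153.2) and for miR-181b-3p at 0.104 CPM, and high-altitude goat 3 for miR-3138-5p at 0.333 CPM. For these last miRNAs the other 5 muscle libraries were at 0, and the values are near the limit that a count of 0 allows.

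The muscle contrast differed between populations, by the edgeR test of that difference, for 17 miRNAs. On the log2 scale, high minus low altitude, the values were -4.00 for miR-3958-3p, -5.06 for miR-655-3p, -4.22 for miR-410-3p, -3.48 for miR-411a-5p, -4.99 for miR-381-3p, -5.91 for miR-411a-3p, -4.35 for miR-154b-5p and -7.29 for miR-376b-3p. They were -3.34 for miR-380-3p, -3.32 for miR-493-5p, -3.09 for miR-136-3p, -3.27 for miR-369-5p, -3.92 for miR-543-3p, -2.46 for miR-127-3p and -3.06 for miR-412-5p. Outside the cluster, miR-4524a-1-5p had a value of 12.86 and miR-184-5p one of 9.71, but low-altitude muscle held 0 or 1 counts of them in each library, so these sizes are set by the fit and are not measured folds. No difference was called without low-altitude goat 3, the library that was also distant in level for miR-411a and miR-376b. None was called without high-altitude goat 1 or without high-altitude goat 3 either. Without low-altitude goat 3 the 10 members named by rule had values from -3.21 to -1.23.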

How the results depend on the processing

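The enrichment of miR-128-3p over all 5 tissues was called under every setting, and that of miR-206-3p under all but the high-altitude libraries alone. The robust fit and RLE size factors reversed no named value. Some changed values are given by setting, for log2 fold changes over the mean of the other 5 tissues unless said otherwise; unless the setting itself removes samples or miRNAs, the cause was not tested.

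With library size only, 89 miRNAs were higher and 122 lower than the mean, 6 and 24 than all 5 tissues, 21 and 54 than the 4 without heart, and the altitude difference gave 1 positive and 9 negative calls. Values turned to -0.45 for miR-26a-5p, -0.81 for miR-27b-3p, -0.20 for miR-30e-5p, -0.19 for miR-380-3p, -0.35 for miR-450b-5p, -0.87 for miR-199a-3p, -0.57 for miR-92a-3p, -0.62 for miR-29a-3p, -0.47 for let-7f-5p and -0.32 for miR-125b-5p. DESeq2 gave 101 higher and 102 lower than the mean, 11 lower than all 5, and 20 positive and 45 negative altitude calls.

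filterByExpr gave 31 negative altitude calls and -0.0807 for miR-199a-3p. Without miRNAs combining 0 with 100 counts there were 8 positive and 36 negative, and miR-199a-3p was just under 0, at -0.000181. With identical names kept once there were 25 negative, miR-27b-3p was at -0.0543, miR-199a-3p at -0.12, and the share of the most abundant miRNA was 4.62 points higher in muscle. Minimum log2 fold changes of 1 and of none each gave 26 higher than all 5.

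With the replicate block for goat, 94 miRNAs rather than 134 were higher than the mean, 5 calls against all 5 tissues were lost, among them miR-1814-3p, miR-133a-5p, miR-381-5p and miR-7846-3p, the altitude difference had 1 positive call and miR-126-3p was at 0.00407; of 113 named values 9 became weaker in the paired fit. With 6 tissue groups, 242 were higher than the mean and 3 lower than all 5. In the 2-group fit miR-27b-3p was at -0.11, miR-208b-3p at -0.0786, miR-208a-5p at -0.87, miR-208a-3p at -2.60, miR-450b-5p at -0.31, miR-885-5p at -0.0866 and miR-125b-5p at -0.0217. Without a change of sign, miR-122-5p went from -0.72 to -6.62 there, miR-34c-5p from -0.15 to -4.57, miR-499-5p from 4.31 to 0.0720 and miR-133a-3p from 7.55 to 3.62.

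High-altitude libraries alone gave 27 lower than the mean, 29 calls against heart, 72 kidney, 94 liver, 104 lung and 89 spleen, 1 higher and 0 lower than all 5, and 16 higher and 1 lower than the 4. There miR-3958-3p was at -0.29, miR-655-3p -1.33, miR-410-3p -0.62, miR-411a-5p -0.89, miR-411a-3p -1.54, miR-154b-5p -0.70, miR-376b-3p -2.17, miR-380-3p -1.09 and miR-493-5p -0.46. Low-altitude libraries alone gave 137 against spleen, 5 higher and 11 lower than all 5, and 19 higher than the 4; miR-27b-3p was at -0.49, miR-199a-3p -0.20, miR-92a-3p -0.10, miR-29a-3p -0.23, let-7f-5p -0.20 and miR-181a-5p 0.00879.

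In the settings chosen after seeing the data, summing alternating names gave 10 higher than all 5, 23 lower than the 4, miR-27b-3p -0.16 and miR-199a-3p -0.21, and the spleen TMM reference gave 10 higher than all 5, miR-27b-3p -0.18 and miR-199a-3p -0.22.

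Leaving out each library in turn gave 7 to 15 higher and 4 to 12 lower than all 5, 24 to 38 higher and 10 to 23 lower than the 4, and 0 to 3 positive and 0 to 30 negative altitude calls. Ranges that crossed 0 were -0.31 to 0.21 for miR-27b-3p, -0.80 to 1.33 for miR-655-3p, -0.67 to 0.94 for miR-411a-5p, -1.24 to 1.53 for miR-411a-3p, -0.12 to 1.58 for miR-154b-5p, -1.01 to 1.60 for miR-376b-3p, -0.56 to 0.66 for miR-380-3p, -0.80 to 0.63 for miR-450b-5p, -0.34 to 0.0793 for miR-199a-3p, -0.28 to 0.38 for miR-92a-3p, -0.0255 to 0.44 for miR-29a-3p, -0.24 to 0.48 for let-7f-5p and, for miR-133a-5p over heart, -0.00899 to 2.06. In 28 of 36 of these fits edgeR took a spleen library as TMM reference, and in the same 28 the sign of miR-27b-3p and of miR-199a-3p turned.

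Depth limits what can be said of miRNAs under about 1 CPM, where a library holds few counts, and 70 of the 134 higher and 14 of the 57 lower miRNAs stayed under 10 CPM in every tissue.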
